A study of Mus musculus with 11 samples.

Results

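The replication-dependent histone genes encode the histones that package newly made DNA. They were described here in RNA sequencing of mouse peritoneal macrophages, the inflammatory cells that collect in the abdominal cavity after thioglycollate is injected. Cells of 5 libraries (replicates 1, 2, 3, 4 and 6) had received a negative control, and cells of 6 libraries (replicates 1 to 6) a mimic of the microRNA miR-150, that is, a synthetic double that acts in its place. The submitters left out 1 more control sample for poor fragmentation of its RNA. All came from female mice. The sources used here do not give strain, age, dose, duration or way of delivery. The series concerns macrophage miR-150 and abnormal vessel growth in age-related macular degeneration, and its design has 1 contrast, mimic against negative control. The genes were those whose names begin with Hist1h to Hist4h and that were at a log2 CPM of -1 or more in 5 or more of the 11 libraries. CPM is the number of reads of a gene after every library is scaled to the same total, here with 0.5 read added before the log2 is taken. This gave 43 genes out of 60 so named, among 12969 genes at that level and 31936 in the table. They comprised 5 genes of the linker histone H1, 8 of H2A, 9 of H2B, 9 of H3 and 12 of H4. Their levels and their differences between the groups were known from earlier work on these data when they were chosen, so counts over them are descriptions.

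Pairs of H2A, H2B, H3 and H4 form the core of the nucleosome, and H1 binds the DNA where it enters and leaves that core. The replication-dependent genes lie in clusters, mostly lack introns and are transcribed mainly in S phase, when the coactivator NPAT drives them. Their mRNAs are the metazoan mRNAs that end in a conserved stem-loop instead of a poly(A) tail. The stem-loop binding protein SLBP holds that hairpin during cleavage, translation and decay. In cells that leave the cycle, some of these genes also give polyadenylated transcripts that run past the hairpin.

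The hairpin is the sequence feature that defines the family, and it was sought in the sense strand of the annotated transcripts as the stem strand GGNNCT, the loop TTTN and the stem strand AGNNCC in direct succession. The antisense strand was not searched, since the hairpin is read in RNA. It was found in 30 of 42 genes matched to GENCODE M21 (build GRCm38) by gene ID. Over 12933 tested genes with an annotated transcript, 0.363% held the motif, including 17 genes outside the family. There were 6 distinct hairpins, and 1 gene is shown for each together with Hist3h2a, the gene that moved against the others. Capitals mark the 16 bases of the hairpin.
Hist1h1c: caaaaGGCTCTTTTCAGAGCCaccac
Hist3h2a: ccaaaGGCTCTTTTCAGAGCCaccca
Hist1h3e: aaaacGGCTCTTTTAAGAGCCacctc
Hist2h2ac: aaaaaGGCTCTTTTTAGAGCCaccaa
Hist1h4h: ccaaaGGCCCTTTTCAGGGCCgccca
Hist2h4: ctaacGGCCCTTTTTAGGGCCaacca
Hist1h4b: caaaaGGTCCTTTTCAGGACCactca
The Hist1h1c form occurred in 15 genes of H1, H2A, H2B and H3, Hist3h2a among them. The Hist1h3e form occurred in 4 genes of H2B and H3, and the Hist2h2ac form in that gene alone. The other 3 forms belonged to H4 genes: 6 with the Hist1h4h form, 2 with the Hist2h4 form and 2 with the Hist1h4b form. The capitals lie at chr13:23739512-23739527 (plus strand) in Hist1h1c, chr11:58955172-58955187 (plus) in Hist3h2a and chr13:23561903-23561918 (minus) in Hist1h3e. They lie at chr3:96220418-96220433 (minus) in Hist2h2ac, chr13:23531458-23531473 (plus) in Hist1h4h, chr3:96262939-96262954 (minus) in Hist2h4 and chr13:23757366-23757381 (plus) in Hist1h4b. The annotated transcript of Hist1h4k has 312 bases, 309 of them coding, so a missing match there says nothing about the mRNA itself. Not every transcript without a match is short: those of Hist2h2be and Hist1h2bc have 2620 and 1156 bases, 378 of them coding in each. Why these lack a match was not tested.

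Controls held 18538509 to 22668862 reads assigned to genes and mimic libraries 20313901 to 25473814. All 8 macrophage markers examined passed the level filter, with a summed level of 17776.8 to 20591.9 CPM in controls and 15933.0 to 20298.8 CPM with the mimic (Fcgr1 and Adgre1 rose, Cd14 and Lyz2 fell). Markers of other cells were scarce, and none was at 0 reads in every library. The 6 B cell markers summed to 2.9 to 4.8 CPM in controls and 2.2 to 3.7 with the mimic, and 1 of 2 tested (Ighm) fell. The 6 neutrophil markers summed to 14.2 to 17.9 and 9.4 to 16.2 CPM, and 1 of 2 tested (S100a8) fell. The 6 eosinophil markers summed to 33.7 to 35.9 and 27.3 to 29.2 CPM, and the 1 tested (Siglecf) fell. None of the 6 mesothelial or fibroblast markers tested was called, at 25.1 to 35.2 and 16.3 to 36.5 CPM. Nor was the 1 of 5 erythroid or platelet markers tested, at 36.2 to 41.0 and 28.8 to 45.9 CPM, though its unadjusted limma p was below 0.05. A fit that weighted each library (voom) called 3 of those 6 and that 1 lower. T cell and mast cell markers summed to at most 1.2 CPM in any library, and none passed the level filter. The part of other cells in the results below was not tested, and in bulk RNA fewer cells of a type and less RNA per cell cannot be told apart. No source says whether replicates were separate animals or cultures, so p-values measure the spread between these libraries, which may be technical. Mimic replicate 1 stood apart from the other mimic libraries for the histone genes. It was not apart in Ifit3, an interferon-induced gene looked at afterwards as a check of its label: log2 CPM 7.79, against 7.84 to 7.98 in the other mimic libraries and 3.94 to 4.75 in controls. Mimic replicates 3, 4 and 6 had the lowest histone levels, and earlier work on these data had doubted them. Results are therefore also given without these libraries. Since replicates 3, 4 and 6 were lowest in the histone sum, leaving them out had to make the summed fall smaller. Those fits show how far results rest on these libraries and are not independent checks. Weights that voom gave the libraries, from the scatter of all genes tested, were 0.356, 0.689, 1.824, 0.582, 0.734 and 0.764 in mimic replicates 1 to 6. They were 1.219 to 1.661 in the controls.

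Reads from the 43 histone genes together were fewer in 5 of the 6 mimic libraries than in any control. The sum was 400.0, 426.3, 408.2, 378.0 and 411.9 CPM in the controls, a mean of 404.9 ± 17.8 (SD, n = 5). In mimic replicates 1 to 6 it was 397.8, 276.0, 235.2, 202.5, 294.7 and 206.8 CPM, a mean of 268.8 ± 73.1 (SD, n = 6) and 0.66 times the control mean. Mimic replicate 1 lay inside the control range, and the highest of the others stood at 72.8% of the control mean. The ratio was 0.60 without mimic replicate 1 and 0.80 without mimic replicates 3, 4 and 6.

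H4 had the lowest ratio of the classes. Its 12 genes averaged a sum of 103.9 ± 9.7 CPM over the controls (SD, n = 5). Over the mimic libraries they averaged 53.6 ± 30.7 CPM (SD, n = 6), or 0.52 times as much, and 0.71 times without mimic replicates 3, 4 and 6. H4 was at 112.1 CPM in mimic replicate 1 and at 50.3, 38.4, 30.8, 58.8 and 31.2 CPM in replicates 2 to 6, while the controls ranged from 89.9 to 115.8. The ratio was 0.59 for H3, 0.66 for H1, 0.76 for H2A and 0.84 for H2B, and no difference between these ratios was tested. H1 was the class whose sums did not overlap: 159.9 to 167.0 CPM in controls and 86.1 to 139.7 CPM in the 6 mimic libraries. In H2A, H2B, H3 and H4, mimic replicate 1 lay within or above the control range and the other 5 lay below it. Sums were not divided by transcript length, so they compare libraries and not the amounts of different histones, and they carry no test.

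**Figure D1:**
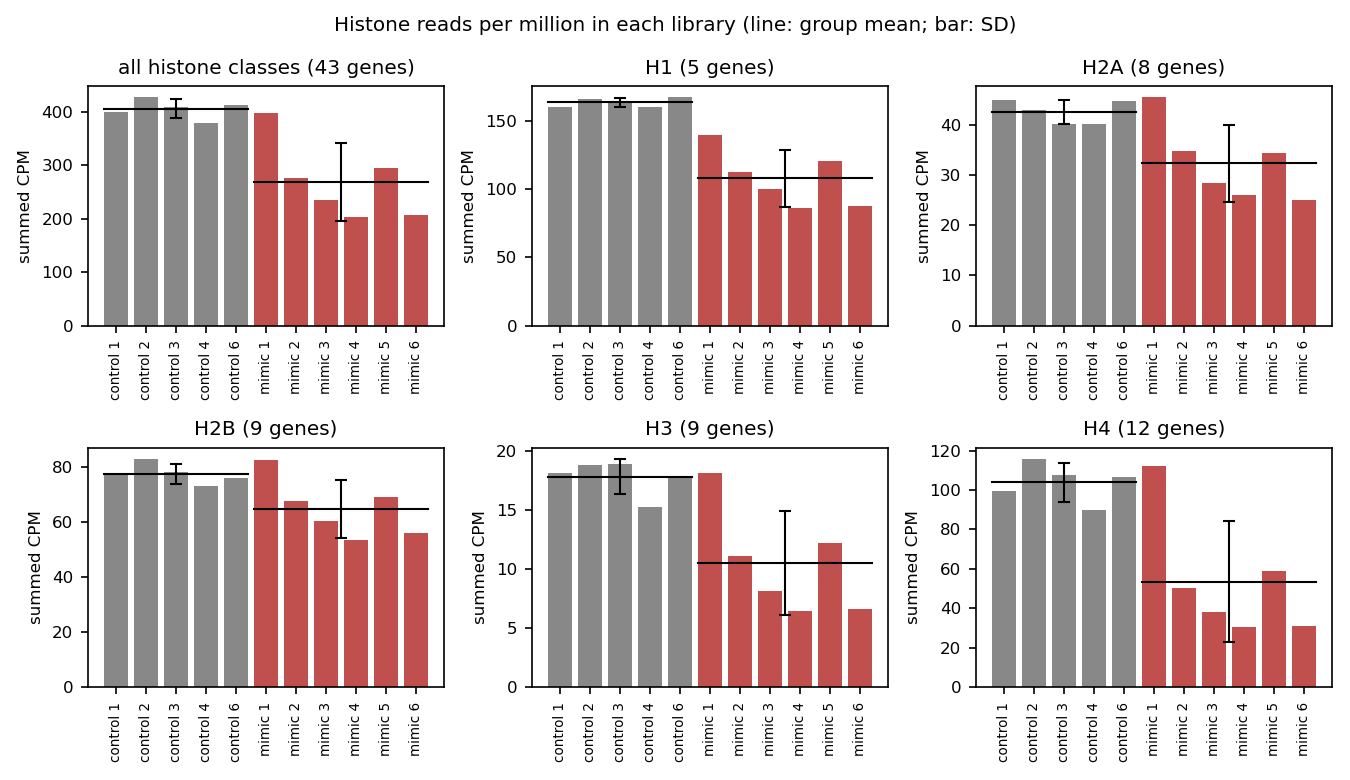
Summed CPM (y axis, linear from 0) of all 43 histone genes and of each class in every library (x axis; grey, negative control; red, mimic); the line is the group mean and the bar its SD. The 12 H4 genes sum to 89.9 to 115.8 CPM in controls and to 30.8 to 58.8 in mimic replicates 2 to 6, while mimic replicate 1 is at 112.1.

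Gene by gene, 32 of the 43 fell, 1 rose and 10 were not called (limma across all 12969 genes, Benjamini-Hochberg adjusted p below 0.05). Over all genes tested, 14.6% were called lower and 15.4% higher. The log2 fold change, mimic minus control, was negative for 42 of the 43, with a median of -0.87, against 0.0007 over all genes tested. For 30 of the 43, at least 5 of the 6 mimic libraries lay below every control (15.1% of all genes), and for 6 all 6 did (6.04% of all genes). Those 6 were Hist1h1a, Hist1h1c, Hist1h1e, Hist1h2ae, Hist1h2bm and Hist2h4. The authors' deposited table, at an adjusted p below 0.05, also has 32 of these genes lower and 1 higher (10.5% and 11.1% of the genes tested here). The 32 are not all the same genes. Hist1h2ab and Hist2h2be were called lower here and not there, and Hist1h2bj and Hist1h4d there and not here. At an adjusted p below 0.01, 10 were lower (6.11% of all genes). Without mimic replicate 1, 38 were lower (19.3% of all genes). Without mimic replicates 3, 4 and 6, 7 were lower (6.83% of all genes), namely Hist1h1c, Hist1h1d, Hist1h2ae, Hist1h2bm, Hist1h3a, Hist1h4a and Hist2h4, and 39 of 43 had a negative fold change.

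**Figure D2:**
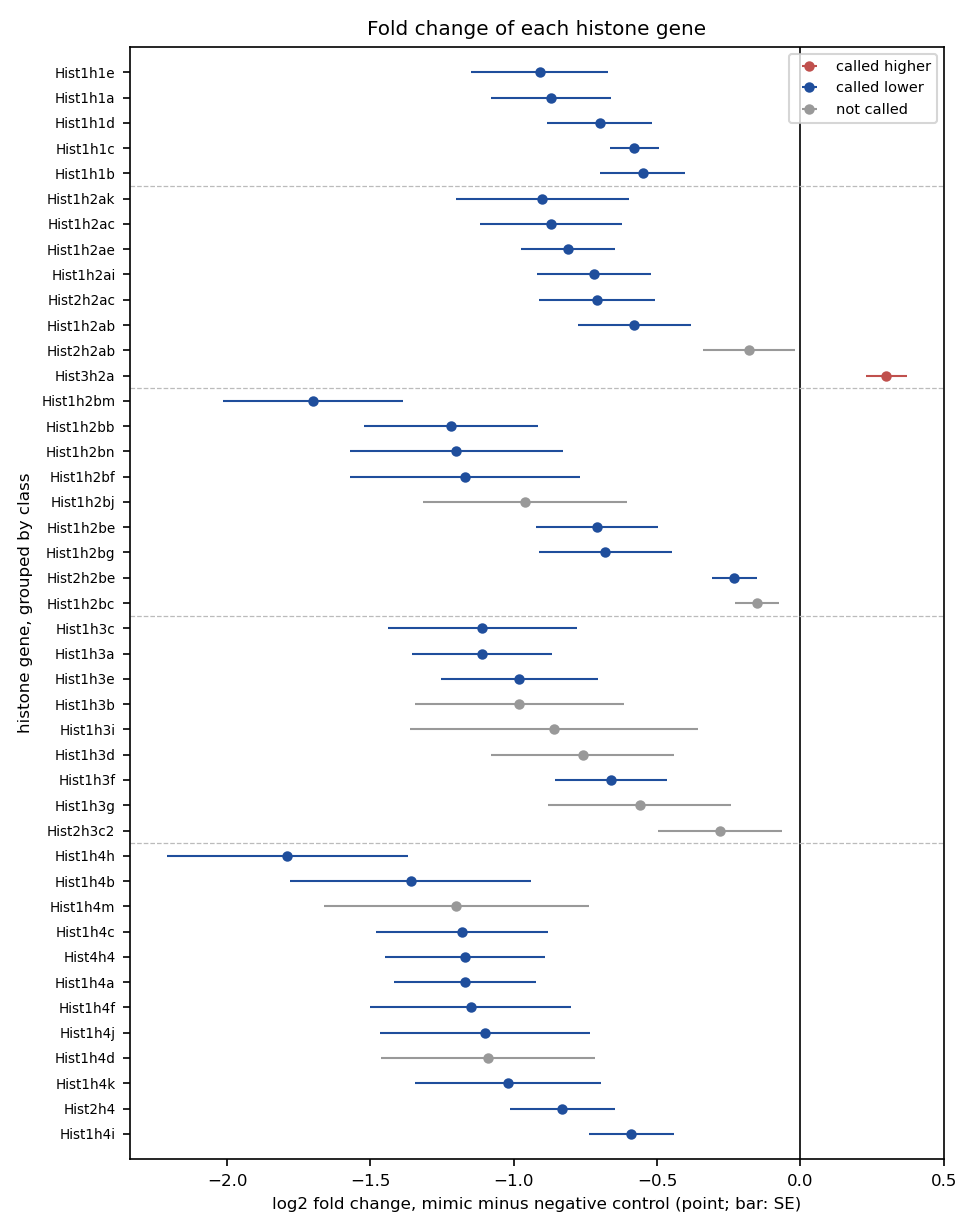
Log2 fold change, mimic minus negative control (x axis; point, estimate; bar, SE), of each of the 43 genes (y axis, grouped by class from H1 at the top to H4). All genes but Hist3h2a lie left of 0, and the lowest are Hist1h4h at -1.79 and Hist1h2bm at -1.70.

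All 5 linker histone genes fell, by a median of 0.70 on the log2 scale and within the range -0.91 to -0.55. Hist1h1c (ENSMUSG00000036181, chromosome 13, 23738808 to 23740367, 1 exon), which encodes the linker histone H1.2, had the smallest p of all 43. Its log2 CPM was 6.97, 7.01, 7.02, 7.00 and 7.03 in the controls. It was 6.75, 6.49, 6.36, 6.19, 6.59 and 6.17 in mimic replicates 1 to 6. The controls lay close together (SD 0.0238) and every mimic library was below them, replicate 1 the least. The log2 fold change was -0.58 ± 0.0852 (SE; limma adjusted p = 0.000199), and it was still called at -0.39 without mimic replicates 3, 4 and 6. Hist1h1e (-0.91 ± 0.239), Hist1h1a (-0.87 ± 0.208), Hist1h1d (-0.70 ± 0.184) and Hist1h1b (-0.55 ± 0.149) also fell. Of the 5, Hist1h1c and Hist1h1d stayed called without mimic replicates 3, 4 and 6, and all 5 were called in each of the 11 fits that left out 1 library.

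Of the 8 H2A genes, 6 fell, Hist3h2a rose and Hist2h2ab was not called. Hist1h2ae (ENSMUSG00000069272, chromosome 13, 23570517 to 23571220) had log2 CPM of 0.75, 0.92, 0.73, 0.69 and 0.95 in the controls. In mimic replicates 1 to 6 it had 0.53, 0.05, -0.31, 0.18, -0.14 and -0.32, all below the controls. Its log2 fold change was -0.81 ± 0.164 (SE; limma adjusted p = 0.00213). Hist2h2ac (ENSMUSG00000068855, chromosome 3, 96220361 to 96220880) was at 4.45, 4.50, 4.32, 4.31 and 4.44 in the controls and at 4.47, 3.95, 3.44, 3.19, 3.86 and 3.21 in the mimic libraries. Mimic replicate 1 was among the controls there. The gene fell by 0.71 ± 0.203 on the log2 scale (SE; limma adjusted p = 0.022), and was no longer called without mimic replicate 4 or without mimic replicate 6, nor without 3, 4 and 6 together (-0.31, adjusted p = 0.166). Hist2h2ab was at 0.67, 0.33, 0.61, 0.59 and 0.49 in the controls and at 0.68, 0.05, 0.82, 0.18, 0.20 and 0.20 with the mimic, groups that overlapped. The difference was -0.18 ± 0.161 on the log2 scale (SE; adjusted p = 0.409 by limma), and a correction for transcript length turned it to 0.10. The other 4, Hist1h2ab, Hist1h2ac, Hist1h2ai and Hist1h2ak, fell by 0.58 to 0.90. The calls of Hist1h2ab and Hist1h2ak were kept in 5 of the 11 fits that left out 1 library: Hist1h2ab lost its call without control replicate 3, 4 or 6 or mimic replicate 3, 4 or 6, and Hist1h2ak without control replicate 1, 2, 3 or 6 or mimic replicate 3 or 6.

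Hist3h2a (ENSMUSG00000078851, chromosome 11, 58954685 to 58956830) was the 1 histone gene called higher. Log2 CPM was 3.25, 2.85, 3.00, 3.13 and 3.16 in the controls and 3.42, 3.35, 3.37, 3.43, 3.42 and 3.29 in the mimic libraries. Every mimic library was above every control, as for 8.89% of all genes tested, and replicate 1 was with the rest. The log2 fold change was 0.30 ± 0.0715 (SE; limma adjusted p = 0.00598), and the call held in every alternative run. It was also the 1 member whose SD was smaller with the mimic (0.0549) than in the controls (0.155). Its annotated transcript continues for 1643 bases past the hairpin and overlaps exons of Trim17, a gene for a ubiquitin ligase, on the same strand. Trim17 itself, looked at for this overlap, differed by 0.14 ± 0.136 on the log2 scale (SE; adjusted p = 0.473 by limma). Reads in the shared stretch may count for either gene.

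Of the 9 H2B genes, 7 fell and 2, Hist1h2bc and Hist1h2bj, were not called. Hist1h2bm (ENSMUSG00000096807), the second lowest fold change of the family, was at -0.48, -0.22, -0.07, -0.72 and -0.03 in the controls. With the mimic it was at -0.91, -1.54, -2.13, -2.80, -2.17 and -2.51, below every control in all 6. The log2 fold change was -1.70 ± 0.314 (SE; limma adjusted p = 0.00101), and it remained called at -1.23 without mimic replicates 3, 4 and 6. Its log2 CPM was at least -1 in all 5 controls and in 1 mimic library, so it passed the level filter through the controls. Hist1h2bc (ENSMUSG00000018102, chromosome 13, 23684199 to 23692908), annotated with 2 exons, had the highest mean log2 CPM of the class, which is not divided by transcript length. It was at 5.41, 5.52, 5.48, 5.33 and 5.30 in the controls and at 5.52, 5.25, 5.18, 5.06, 5.45 and 5.12 with the mimic. The groups overlapped, and the difference was -0.15 ± 0.0765 on the log2 scale (SE; adjusted p = 0.156 by limma). Of the alternatives run, it was called without mimic replicate 1 (-0.20, adjusted p = 0.0216) and with voom's library weights. It was -0.01 (adjusted p = 0.921) after the correction for transcript length and -0.00 (adjusted p = 0.973) without mimic replicates 3, 4 and 6. Hist2h2be, with a log2 fold change of -0.23, fell least of the called H2B genes, and its call was lost without any 1 of control replicates 1, 2, 4 and 6 and mimic replicates 3, 4, 5 and 6.

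Of the 9 H3 genes 4 fell, the fewest called of any class for its size, although all 9 fold changes were negative. Hist1h3a (ENSMUSG00000069265, chromosome 13, 23761853 to 23762386) was at 0.90, 0.76, 0.91, 1.16 and 1.02 in the controls. In the mimic libraries it was at 0.97, -0.16, -0.10, -0.75, -0.20 and -0.73, so that replicate 1 lay among the controls and the others below. Its log2 fold change was -1.11 ± 0.244 (SE; limma adjusted p = 0.00363). Hist1h3e (ENSMUSG00000069273, chromosome 13, 23561534 to 23562369) was at 2.91, 3.07, 3.10, 2.86 and 2.93 in the controls and at 3.06, 2.25, 1.76, 1.27, 2.28 and 1.33 with the mimic. It fell by 0.98 ± 0.275 on the log2 scale (SE; limma adjusted p = 0.02), a call lost without mimic replicates 3, 4 and 6 (-0.44, adjusted p = 0.105). Hist1h3c and Hist1h3f also fell. The 5 genes not called (Hist1h3b, Hist1h3d, Hist1h3g, Hist1h3i and Hist2h3c2) had fold changes from -0.98 to -0.28 and limma adjusted p from 0.0512 to 0.345.

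H4 had the lowest median of the classes, -1.16, with 10 of 12 genes called lower and 10 of 12 below every control in at least 5 mimic libraries. Hist1h4h (ENSMUSG00000060981, chromosome 13, 23531050 to 23531519) had the lowest fold change of all 43. Its log2 CPM was 3.67, 3.88, 3.85, 3.57 and 3.84 in the controls and 3.77, 1.92, 1.35, 1.45, 2.17 and 1.14 with the mimic. Mimic replicate 1 was inside the control range, and the other 5 were below every control. The log2 fold change was -1.79 ± 0.42 (SE; limma adjusted p = 0.0115), and -1.14 (adjusted p = 0.137) without mimic replicates 3, 4 and 6. Hist1h4a (ENSMUSG00000060093, chromosome 13, 23760692 to 23761230) was at 0.97, 1.69, 1.49, 0.95 and 1.20 in the controls and at 1.00, 0.17, -0.31, 0.07, 0.35 and -0.73 with the mimic. It fell by 1.17 ± 0.247 on the log2 scale (SE; limma adjusted p = 0.00304), and by 0.75 (adjusted p = 0.013) without mimic replicates 3, 4 and 6.

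Hist1h4d and Hist1h4b show how far the call depended on single libraries. Hist1h4d (ENSMUSG00000061482, chromosome 13, 23581598 to 23582735) had the highest mean log2 CPM of the H4 genes, not divided by length: 4.79, 5.01, 4.89, 4.59 and 4.78 in the controls. With the mimic it was at 5.18, 3.77, 3.34, 2.98, 4.08 and 2.97: replicate 1 lay above every control and the others below. With all libraries the difference was -1.09 ± 0.374 on the log2 scale (SE; adjusted p = 0.0518 by limma). Without mimic replicate 1 it was -1.39 (adjusted p = 0.000754), and without mimic replicates 3, 4 and 6 it was -0.47 (adjusted p = 0.41), while the authors' deposited table gives an adjusted p of 0.00432 over all libraries. Hist1h4b (ENSMUSG00000069266, chromosome 13, 23757013 to 23757409) was at -0.58, -1.64, -0.55, -0.12 and -0.29 in the controls and at -0.91, -0.92, -2.42, -2.43, -1.93 and -3.36 with the mimic. It fell by 1.36 ± 0.42 on the log2 scale (SE; limma adjusted p = 0.0236). That call was lost without control replicate 4 or 6, or mimic replicate 3, and the value was -0.62 (adjusted p = 0.261) without mimic replicates 3, 4 and 6. Its groups overlapped through control replicate 2 and mimic replicates 1 and 2. Hist1h4b had few reads, 67 in controls against 37 with the mimic. Its log2 CPM was at least -1 in 4 controls and 2 mimic libraries, so the controls mainly carried it past the level filter.

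The genes varied together across libraries. The median deviation of the 43 genes from their control means was between -0.17 and 0.10 log2 units in the controls. It was 0.02, -0.61, -1.09, -1.38, -0.58 and -1.38 in mimic replicates 1 to 6. Mimic replicate 1 was the highest mimic library for 37 of the 43, replicate 4 the lowest for 21 and replicate 6 the lowest for 16. The SD was larger among mimic libraries than among controls for 42 of 43 genes, against 70.1% of all genes tested. Its median over the genes was 0.186 in the controls and 0.622 with the mimic. The number of genes below the lowest control was 7 in mimic replicate 1 and 36, 41, 42, 32 and 41 in replicates 2 to 6. Neither these counts nor those of the highest and lowest mimic library were made over all genes tested. They are therefore not read as particular to histone genes.

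**Figure D3:**
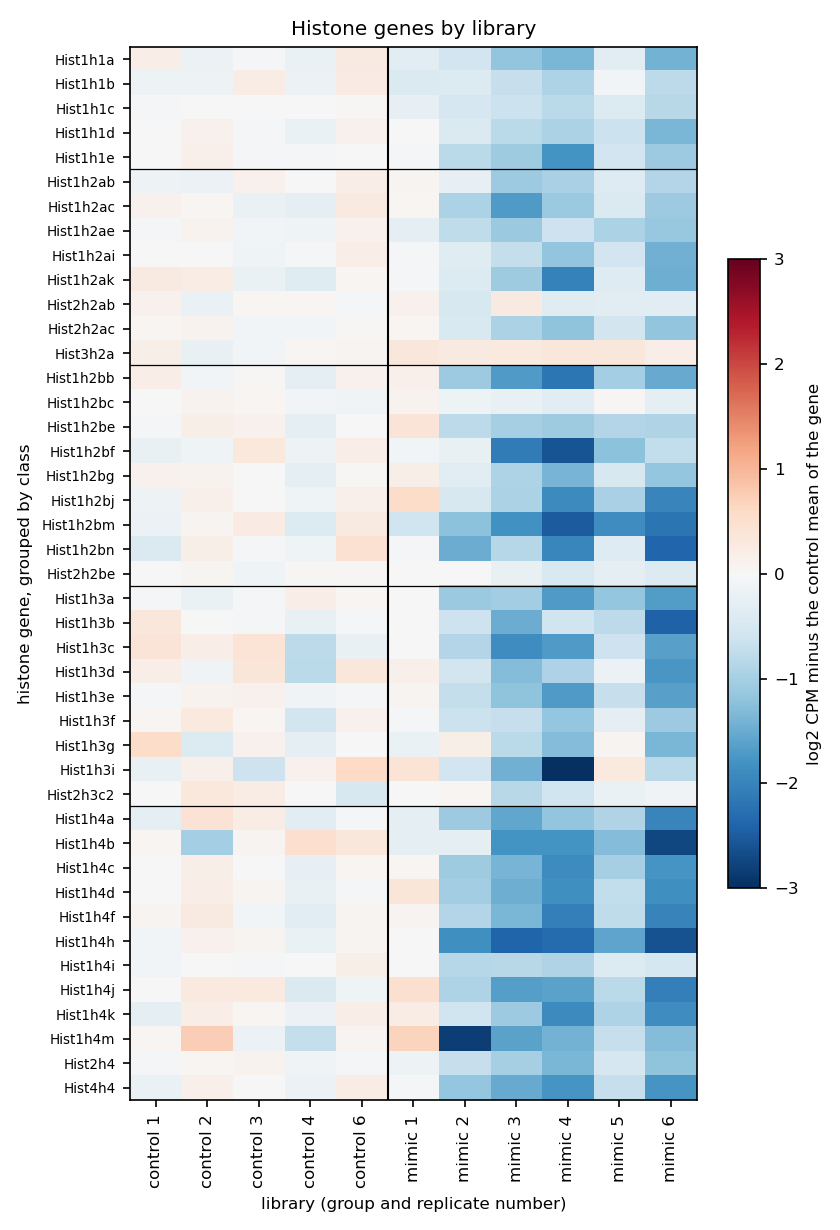
Log2 CPM minus the gene's control mean (colour, from -3 in blue to 3 in red) for the 43 genes (y axis, by class) in each of the 11 libraries (x axis). Mimic replicate 1 resembles the controls, with a median deviation of 0.02, and replicates 4 and 6 are lowest, at -1.38 each.

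By genomic cluster, 28 of the 36 Hist1 genes on chromosome 13 fell, and their median was -0.93 on the log2 scale. The 5 Hist2 genes on chromosome 3 had a median of -0.28, and 3 fell. Hist4h4, on chromosome 6, fell by 1.17 ± 0.278 on the log2 scale (SE; limma adjusted p = 0.00985). No difference between the clusters was tested.

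A gene could pass the level filter through 1 group alone. Of the 43 genes, 30 reached a log2 CPM of -1 in all 11 libraries, and among these 26 fell, 1 rose and the median was -0.82. By contrast 39 reached it in all 5 controls, and 11 reached it in fewer than 5 mimic libraries. Just inside the limit, with 5 libraries each, were Hist1h3b, Hist1h3g and Hist1h3i, at fold changes of -0.98, -0.56 and -0.86. Just outside, with 4 libraries each, all of them controls, were Hist1h2bh (63 reads over the controls, 33 over the mimic libraries) and Hist3h2bb-ps (71 and 42). The 17 genes below the limit held 420 control and 264 mimic reads, 0.866% of the reads of all 60.

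Many of these genes are near-copies of each other, and no source used here says how reads common to several genes were counted. In 7 genes, fewer than 10% of the 50-base stretches of the transcript occurred in any other gene, a limit chosen after the data were seen. All 7 fell, by a median of 0.70: Hist1h1a, Hist1h1b, Hist1h1c, Hist1h1d, Hist2h2be, Hist2h4 and Hist4h4. Hist2h4 (ENSMUSG00000091405, chromosome 3, 96261682 to 96263311) shared 1.0% of its stretches and fell by 0.83 ± 0.182 on the log2 scale (SE; limma adjusted p = 0.006). Among the 16 genes that shared 50% or more, 9 fell and the median was -0.93. Single values of those 16 are uncertain, as are those of Hist1h1e and Hist1h2be, which overlap on 1 strand. In all, 4 genes overlap another on the same strand, and 9 overlap one on the opposite strand, from which they cannot be told apart without a stated strand setting.

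Genes were also split by the annotated length of transcript after the hairpin. The 12 genes with under 100 bases after it had a median of -1.13, and 9 fell. The 18 with 100 bases or more had a median of -0.78, with 14 lower and Hist3h2a higher. The level filter bears on this split: 6 of the 12 and 1 of the 18 reached the level limit in fewer than 5 mimic libraries, so that they passed mainly through the controls. Among genes at that limit in all 11 libraries, the medians were -1.13 (6 genes) and -0.81 (15 genes). The limit of 100 bases was chosen after the data were seen, the difference was not tested, and the ends are those of the annotation and not measured in these cells.

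**Figure D4:**
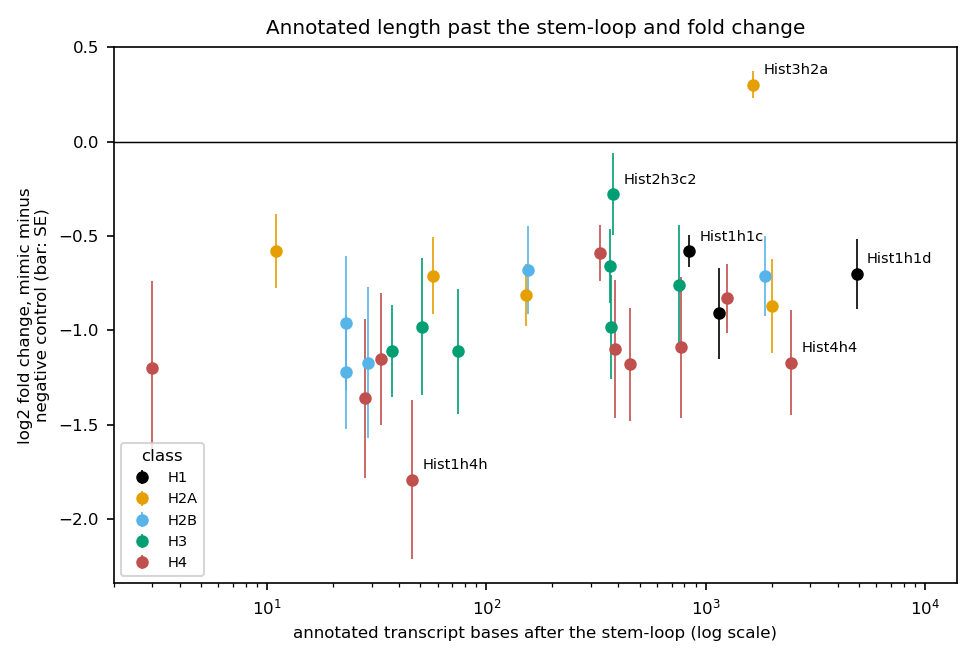
Log2 fold change, mimic minus negative control (y axis; bar, SE), against the annotated transcript bases after the hairpin (x axis, log scale) for the 30 genes with a hairpin, coloured by class. Genes with under 100 bases after it have a median of -1.13 and the others -0.78, and Hist3h2a is alone above 0.

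Other histones and the machinery around them were taken from lists written with earlier results of these data known. Their counts stand against 15.4% of all genes called higher and 14.6% called lower. Of 11 replication-independent histones, whose mRNAs are polyadenylated and made throughout the cell cycle or in resting cells (Cenpa, made late in the cycle, and H2afx, which gives both kinds of mRNA, apart), 10 were tested. Among them 7 fell and 1 rose, and the median was -0.41 on the log2 scale. Cenpa, the centromeric H3 variant, fell by 0.56 ± 0.0798 on the log2 scale (SE; limma adjusted p = 8.62e-05), from 3.64 to 3.93 in the controls to 2.96 to 3.40 with the mimic. H2afj (-0.66 ± 0.117), H2afv (-0.52 ± 0.0826) and the linker histone H1f0 (-0.40 ± 0.0698) fell as well, with all 6 mimic libraries below the controls. H2afz, which encodes H2A.Z, fell by 0.30 ± 0.0924, and that call was lost without any 1 of control replicates 1, 3 and 6 and mimic replicates 3 and 6. It was -0.15 (adjusted p = 0.14) after the correction for transcript length and -0.15 (adjusted p = 0.322) without mimic replicates 3, 4 and 6. H3f3b, which encodes H3.3, rose by 0.12 ± 0.0433 (SE; limma adjusted p = 0.0408). Its call was lost without any 1 of control replicates 1, 2, 4 and 6 and mimic replicates 3, 5 and 6. H3f3a, which also encodes H3.3, was among the 7 that fell, so the genes for H3.3 were called in opposite directions. Mimic replicate 1, which was like the controls for most replication-dependent genes, was below every control for Cenpa (3.24), H1f0 (5.80), H2afj (5.85) and H2afv (3.67).

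The list of genes that transcribe, process and degrade histone mRNA held 38 names, of which Tut7 and Zcchc6 name the same gene. Of these names 35 were tested, 11 rose and 3 fell, and the median was 0.05 on the log2 scale. Slbp was at 4.76, 4.83, 4.75, 4.74 and 4.84 in the controls and at 4.73, 4.70, 4.86, 4.97, 4.77 and 4.92 with the mimic, which overlapped. The difference was 0.04 ± 0.0552 on the log2 scale (SE; adjusted p = 0.622 by limma), and -0.05 without mimic replicates 3, 4 and 6. Npat rose by 0.20 ± 0.0654 (SE; limma adjusted p = 0.0298), a call lost without any 1 of control replicates 3 and 6 and mimic replicates 3, 4 and 6. It was 0.14 (adjusted p = 0.0541) after the correction for transcript length and 0.10 (adjusted p = 0.302) without mimic replicates 3, 4 and 6 together. The smallest p-values belonged to Pnpt1, a mainly mitochondrial exoribonuclease (0.63 ± 0.0568), and Cpsf2, a subunit of the cleavage complex (0.29 ± 0.0407). They were followed by Zcchc6, a terminal uridylyltransferase (0.35 ± 0.0603), and Xrn1, the cytoplasmic 5′ to 3′ exonuclease (0.44 ± 0.0812). All 6 mimic libraries, replicate 1 included, were above the controls for these 4. The 3 that fell, named after their values were seen, were Snrpf (-0.41), Lsm10 (-0.26) and Snrpe (-0.26), which encode Sm and Sm-like proteins of small nuclear ribonucleoproteins. Each of these 3 calls was lost when some single libraries were left out (among them control replicate 2 for all 3), and when transcript length was corrected for. The count of genes called lower was 8 without mimic replicate 1 and was 1 without mimic replicates 3, 4 and 6.

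All 22 histone chaperones and deposition factors were tested, 4 rose and 1 fell, with a median of 0.06. The count that rose is near that background and the count that fell is under it, so neither is a result about the list. Daxx, which deposits H3.3, rose by 0.89 ± 0.0458 (SE; limma adjusted p = 2.42e-10), with all 6 mimic libraries at 6.55 to 6.75 and the controls at 5.66 to 5.81. Supt16 (0.22 ± 0.0694), Nasp (0.19 ± 0.0639) and Atrx (0.34 ± 0.113) rose, and Tonsl fell by 0.32 ± 0.0905. Supt16 is part of the FACT complex and Nasp carries H3 and H4. Daxx kept its call in every alternative. The calls of Nasp and Atrx were lost without any 1 control replicate or mimic replicate 3, 4 or 6, and that of Supt16 without control replicate 4 or 6 or mimic replicate 3 or 6. Without mimic replicates 3, 4 and 6, limma called 2 higher and 0 lower, with 3 higher and 1 lower at an unadjusted p below 0.05.

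Few genes of S phase were called. Of 38 tested, 1 rose, 1 fell and the median was -0.02 on the log2 scale. Mcm6, a subunit of the replicative helicase, rose by 0.25 ± 0.0412 (SE; limma adjusted p = 0.000341), and Cdt1, which loads that helicase, fell by 0.23 ± 0.067 (SE; limma adjusted p = 0.0169), a call lost without control replicate 6 and, at -0.14 (adjusted p = 0.102), without mimic replicates 3, 4 and 6. Pcna, the sliding clamp of DNA polymerase, was at 6.94, 6.95, 6.96, 6.85 and 6.94 in the controls and at 7.09, 6.88, 6.79, 6.74, 7.03 and 6.79 with the mimic. The groups overlapped, with a difference of -0.04 ± 0.0592 on the log2 scale (SE; adjusted p = 0.633 by limma). Of 28 genes of mitosis and proliferation limma called 0, with 1 higher and 2 lower at an unadjusted p below 0.05, and the weighted voom fit called 1 higher and 2 lower. The median of the list was -0.05. The proliferation marker Mki67 differed by 0.05 ± 0.0757 on the log2 scale (SE; adjusted p = 0.646 by limma). In mimic replicates 1 to 6 the median deviation of the S-phase list was between -0.07 and 0.04, and that of the mitosis list between -0.08 and 0.07. Among 18 cell cycle arrest genes 3 rose and 8 fell, with a median of -0.15. Cdkn1a, the inhibitor p21, rose by 0.47 ± 0.0632, Mdm2 by 0.36 ± 0.0492 and Ccng1 by 0.21 ± 0.0393. Btg2, an antiproliferative gene, fell by 0.23 ± 0.0503. All 6 mimic libraries, replicate 1 included, lay outside the control range for these 4. Besides Btg2, the genes that fell were Cdkn2c, Cdkn1b, Cdkn1c, Gadd45a, Cdkn2d, Gadd45b and Cdkn2b. Without mimic replicates 3, 4 and 6, 3 of the list were called higher and 3 lower.

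Other RNAs that lack a poly(A) tail were also mostly lower with the mimic. Of 15 short or structural RNAs on the list 10 were tested, 9 fell, and the median was -1.07 on the log2 scale. None rose, at an unadjusted p below 0.05 or in the weighted voom fit either. Their median deviation was 0.12, -1.28, -1.19, -1.56, -0.87 and -1.46 in mimic replicates 1 to 6 and -0.39 to 0.29 in the controls. Replicate 1 was highest and replicate 4 lowest, as for the histone genes, while replicate 2 was below replicate 3 here and above it there, and the controls spread more widely. Likeness was not tested. Terc, the telomerase RNA, fell by 0.83 ± 0.22 (SE; limma adjusted p = 0.0117) and Scarna2, a Cajal body RNA, by 0.54 ± 0.147. Rn7s2 (-1.46 ± 0.382) and Rn7s6 (-1.05 ± 0.279), which are 7SL RNAs of the signal recognition particle, also fell. Rn7s2 had few reads, 72 in controls against 38 with the mimic. Its log2 CPM was -1.16 to -0.01 in the controls and -0.26 in mimic replicate 1. Mimic replicates 2 to 6 lay at -2.78 to -1.98, under the limit of -1, so the controls mainly carried Rn7s2 past the level filter. Without mimic replicates 3, 4 and 6, limma called 0 of the 10, with 2 lower at an unadjusted p below 0.05. No source used here says whether the libraries were made from polyadenylated or ribosome-depleted RNA. The part of these RNAs' variation in the histone result was not tested.

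**Figure D5:**
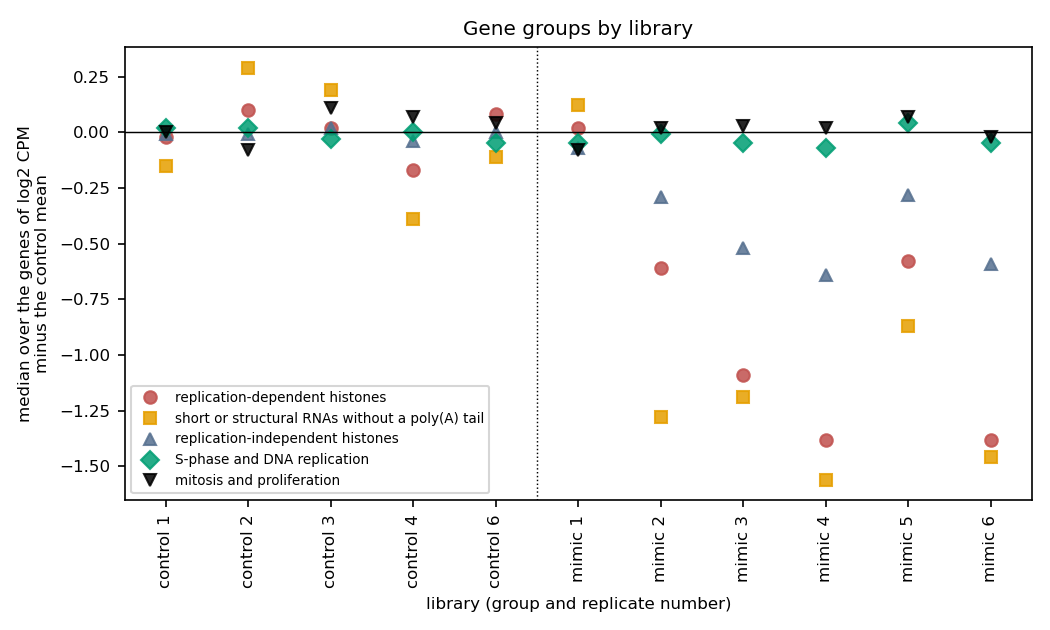
Median over the genes of each list of log2 CPM minus the control mean (y axis) in each library (x axis; controls left of the dotted line). Replication-dependent histones and RNAs without a poly(A) tail are both near 0 in mimic replicate 1 and lowest in replicates 4 and 6, while S-phase genes stay between -0.07 and 0.04 in the mimic libraries.

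Transcript length moved with the same libraries. The median deviation of 900 other genes with transcripts under 1000 bases, minus that of 2782 genes over 5000 bases, was -0.04 to 0.06 in the controls. It was 0.09, -0.22, -0.35, -0.45, -0.12 and -0.37 in mimic replicates 1 to 6. After a correction of every library for transcript length, 26 of the 43 histone genes were called lower (14.9% of all genes), with a median of -0.74, and Hist3h2a stayed higher. The H4 median was then -0.91, with 10 lower, and the H2A median -0.44, with 3 lower. Hist1h2bm had no annotated length and was left uncorrected. The length used was that of the longest annotated transcript, which in some histone genes runs far past the hairpin. Hist1h1d, annotated with 7425 bases, 4884 of them after the hairpin, went from -0.70 to -0.78. How far such annotated lengths bear on the corrected counts was not tested.

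Promoters were examined because most of these genes moved together. RefSeq (GRCm38.p6) gave a window of 300 bases around the start of transcription for 38 of the 43 genes. The octamer ATTTGCAT, which the transcription factor Oct-1 binds in H2B promoters, was searched on both strands and occurred in 8 of 38 windows, or 21.1%, against 1.75% of 27025 promoters. The 8 were 5 of 8 H2A and 3 of 7 H2B windows, and none was of H1, H3 or H4. Capitals mark the octamer, or its reverse complement, on the strand of the gene.
Hist1h2bm: tctcgtctctATTTGCATaacagcgtgt
Hist1h2bg: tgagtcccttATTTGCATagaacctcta
Hist1h2ae: tagaggttctATGCAAATaagggactca
Hist3h2a: ggtaaggcatATGCAAATtaggaaggct
These 4 are shown because they include the lowest and the highest fold change among the 8 genes with an octamer, and a pair that shares 1: Hist1h2bm had a log2 fold change of -1.70, Hist1h2bg -0.68, Hist1h2ae -0.81 and Hist3h2a 0.30. Hist1h2bg and Hist1h2ae lie head to head and share this 1 octamer, and their printed window, flanks included, is at chr13:23571331-23571358. The window of Hist1h2bm is at chr13:21722009-21722036 and that of Hist3h2a at chr11:58954556-58954583. CCAAT, searched on both strands, was in 78.9% of the 38 windows against 37.9% of all promoters, in every H1, H2A, H2B and H3 window and in 3 of 11 H4 windows. TATAAA, also on both strands, was in 63.2% against 14.2%.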

How the data were processed

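RNA was extracted with TRIzol and columns, per the labels' protocols, and sequenced in 11 libraries. Tools named in the submitters' processing notes are STAR, Subread, featureCounts and edgeR; no source used here gives their versions, the genome build or the strand setting. The authors deposited log2 CPM for each library, and for each gene a log2 fold change, its p-value (raw and adjusted) and t and B statistics; these last scores, as deposited, were not used. From the values, whole reads were recovered for 100% of them (tolerance 0.01 read). The first row per gene ID was kept. Linear models with a group term were fitted with limma 3.58.1 (R 4.3.3, statmod 1.5.0; trend, robust) to 12969 genes and tested on simulated data. Class sums added 2 to the power of log2 CPM. GENCODE M21 was joined by gene ID and may not be the authors' annotation.

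Members and lists were chosen with earlier results of these data known. Genes given in full were, per class, those with the highest mean level and the smallest p, any called higher, and the 3 lowest and 3 highest fold changes; per list, up to 4 called by smallest p, and Slbp, Npat, Pcna, Mki67, H3f3b and H2afz. Alternatives covered scaling, filter, offset, voom, length, threshold, replicate block and left-out libraries. Hairpin, promoter, length and overlap limits were chosen after the data were seen. Tables used Python 3.11.15, pandas 2.3.3 and numpy 2.4.6.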

Additional observations from a re-analysis of the deposited data

Results flagged for a closer look

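The summed level of the 12 H4 genes in mimic replicate 1, 112.1 CPM, stood far from the other 5 mimic libraries, which lay between 30.8 and 58.8 CPM. The gap to the nearest of them was 0.66 of the whole range of the mimic libraries, above Dixon's critical value of 0.625 for 6 samples. It was the 1 group so marked of 38 examined, and chance marks about 1 group in 20. The controls ranged from 89.9 to 115.8 CPM.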

How the results depend on the processing

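Of the 43 genes, 32 were called lower, and this count was 10 at an adjusted p below 0.01 (6.11% of all genes). It was 7 without mimic replicates 3, 4 and 6 (6.83% of all genes), which left fewer samples and took out the lowest libraries. It lay between 22 and 38 when each library was left out in turn, while 10.8% to 19.3% of all genes were lower. Of the 43, 18 genes were lower in all 11 of those fits, and the share of all genes lower in all 11 was not computed. The count called lower was 32 with median-of-ratios scaling (15.0% of all genes), 35 with plain totals (16.4%) and 33 with an offset of 2 reads (14.9%). It was 39 with weighted voom (20.5%) and 26 with the length correction (14.9%), against 14.6% in the reported fit. Without a filter it was 26 of 60 genes (4.59% of all genes). A stricter filter gave 23 of 25 (17.4% of all genes) and a filter on the mean 28 of 36 (14.9%). Exactly 1 gene was called higher in each of these fits. The median log2 fold change lay between -1.07 and -0.76 when 1 library was left out and was -0.43 without mimic replicates 3, 4 and 6. Mimic over control for the summed reads lay, with 1 library left out, between 0.60 and 0.70 for the family, 0.62 and 0.69 for H1, 0.70 and 0.79 for H2A, 0.79 and 0.87 for H2B, 0.50 and 0.63 for H3, and 0.40 and 0.56 for H4. With the replicate number as a block, which drops mimic replicate 5, 28 genes were lower (13.8% of all genes). In that fit 1 was higher and the median was -0.97. Same-numbered libraries did not deviate together (correlations of -0.061 to 0.062), so the numbers were not taken as pairs. The length correction gave log2 fold changes of 0.10 for Hist2h2ab, -0.03 for Mki67 and 0.05 for Pcna. Without mimic replicates 3, 4 and 6 they were 0.07 for Pcna, -0.05 for Slbp and -0.04 for Trim17; none of these 6 values was called, and the cause was not tested. Over 22 alternatives, the RNAs without a poly(A) tail called lower ranged from 0 to 10 (9 with all libraries), histone mRNA processing genes from 5 to 14 higher and 0 to 8 lower, chaperones from 1 to 8 higher and 0 to 2 lower, S-phase genes from 1 to 4 higher and 0 to 3 lower, mitosis genes from 0 to 2 in each direction, arrest genes from 3 to 9 lower, and replication-independent histones from 0 to 2 higher and 5 to 7 lower. How far depth limits genes with few reads was not compared.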
